A study of Homo sapiens with 8 samples.

Results

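The genes of cholesterol and fatty acid synthesis were followed across 8 messenger RNA libraries made from KASUMI-1 and THP-1 acute myeloid leukemia cells. They were a listed set of 35 genes, taken by name from the deposited count table. Of these, 18 were enzymes of the sterol branch, and 6 were genes of the sterol sensor, its transcription factors and a sterol carrier. The other 11, called fatty acid genes here, serve fatty acid synthesis, desaturation, elongation and activation, except LPIN1, a phosphatidate phosphatase grouped with them. All 35 were found among the 33045 names of the table, and all 35 passed the filter on low counts that left 16060 genes for testing. The lines were treated with the LSD1 inhibitor DDP38003 (LSD1i, 0.5 µM) or with vehicle. LSD1, encoded by KDM1A, is a histone demethylase. KASUMI-1, a myeloblast line with the RUNX1::RUNX1T1 fusion, was described by the study as sensitive and gave vehicle and LSD1i libraries at 6 h and at 72 h. THP-1 cells, which are monocytic and carry a KMT2A fusion, were described as resistant and gave vehicle and LSD1i libraries at 24 h and at 72 h. Both are established lines grown in flasks, and every group (a line, an agent and a time) held 1 library, 8 in all. The study chose these times as the first and the last at which it saw the kinase mTOR change after LSD1i.

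Cells make cholesterol from acetyl-CoA through mevalonate, the isoprenoids and squalene, and they make fatty acids from acetyl-CoA through malonyl-CoA. Both routes are controlled by the transcription factors encoded by SREBF1 and SREBF2, which SCAP escorts from the endoplasmic reticulum to the Golgi for cleavage when sterol is low. INSIG1 and INSIG2 hold SCAP back when sterol is plentiful, and INSIG1 is itself a target of the cleaved factors. Growing leukemic cells use the products for membranes, for the lipid anchors of signalling proteins and for desaturated fatty acids.

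Counted reads per library ran from 23722972 (KASUMI-1 vehicle 72 h, the shallowest) to 45970766 (KASUMI-1 LSD1i 72 h). Levels are read counts scaled to the TMM-normalized library size (CPM), and they compare libraries for 1 gene. Levels are compared between genes only after division by exon length (CPM per kb). KDM1A lay between 182 and 264 CPM in KASUMI-1 and between 93.5 and 112 CPM in THP-1, and neither line's test called it. The labels of the lines were borne out by RUNX1T1, CD34, KIT and MPO in KASUMI-1 and by HOXA9, CSF1R and LYZ in THP-1, while HOXA10 was present in both. MEIS1, a gene often high with KMT2A fusions, was at 0.112 CPM or less in every library. The T and B cell genes CD3D, CD3E and CD79A were at 5.35 CPM or less, and the red cell gene HBB had no read in any library. The labels do not say whether separate cultures were used, so a p-value here reflects only how far these libraries spread. In the fit of all 8 libraries, that spread is how far the ratio of LSD1i to vehicle changed between the 2 times of a line. Such a change may be technical or may come with time, which cannot be told apart. In bulk RNA, fewer cells of a type and less RNA per cell cannot be told apart.

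In vehicle, sterol enzymes led the members in level per length in both lines. FDFT1, which makes squalene, stood highest in KASUMI-1 at a vehicle mean of 154 CPM per kb. IDI1, the isopentenyl diphosphate isomerase, followed at 125 CPM per kb, then the sterol isomerase EBP at 111 CPM per kb, the stearoyl-CoA desaturase SCD at 102 CPM per kb and the farnesyl diphosphate synthase FDPS at 97.4 CPM per kb. The ranges of these genes over the 4 KASUMI-1 libraries overlapped, so their order is not firm. In THP-1 FDPS came first at a vehicle mean of 196 CPM per kb, then FDFT1 at 130.3 CPM per kb and IDI1 at 65.3 CPM per kb. The FDPS and FDFT1 ranges over the THP-1 libraries overlapped, though within each library FDPS was the higher of the pair. FDFT1 (92.2 to 180.1 CPM per kb) and IDI1 (48.5 to 91.9 CPM per kb) came close without overlap. HSD17B7, a sterol ketoreductase, and LPIN1, a phosphatidate phosphatase, were near the bottom in both lines.

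The lines differed most in ELOVL6, the enzyme that lengthens palmitate. It was at 35.9 and 52.6 CPM in the KASUMI-1 vehicle libraries and at 0.589 and 0.736 CPM in those of THP-1. The THP-1 minus KASUMI-1 difference was -6.05 ± 0.29 on the log2 scale (SE, adjusted p = 6.89e-08, edgeR quasi-likelihood test on the 4 vehicle libraries). Of the 35 members, 4 were higher and 10 were lower in THP-1, against 30.1% and 26.4% of the 15456 genes tested there. The share of members that were lower is near that background, and the share that were higher is below it. DHCR7, the last step of one sterol branch, was at 59.8 and 112 CPM in KASUMI-1 and at 9.7 and 29.4 CPM in THP-1 (log2 difference -2.14 ± 0.44, adjusted p = 0.00195). FADS2, a front-end fatty acid desaturase, was at 134 and 302 CPM in KASUMI-1 and at 13.3 and 89.3 CPM in THP-1 (log2 difference -2.09 ± 0.66, adjusted p = 0.0204). TM7SF2, a sterol reductase, was also lower in THP-1 (-1.60 ± 0.46, adjusted p = 0.0126). DESeq2 called neither the FADS2 nor the TM7SF2 difference. LPIN1 (-0.97), EBP (-0.94), IDI1 (-0.93), the acetyl-CoA carboxylase ACACA (-0.87), SCAP (-0.76) and the sterol demethylase CYP51A1 (-0.73) were also lower in THP-1. The members higher in THP-1 were the acyl-CoA synthetase ACSL3 (1.27), FDPS (1.01), the sterol desaturase SC5DL (0.83) and the elongase ELOVL5 (0.42). The vehicle libraries of a line were taken at different times, so the spread in this test contains the change with time. The first times also differed (6 h and 24 h), so the differences themselves cannot separate line from first time. In the 72 h vehicle libraries alone, which allow no test, 6 of the 35 members changed sign. All the called members kept theirs. Without the KASUMI-1 vehicle 6 h library 21 members were lower, and without the THP-1 vehicle 72 h library 24. Calls of 2 genes rested on single libraries: CYP51A1 was not called without the THP-1 vehicle 24 h library, and ELOVL5 was called only while KASUMI-1 6 h and both THP-1 libraries were all in the fit.

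**Figure D1:**
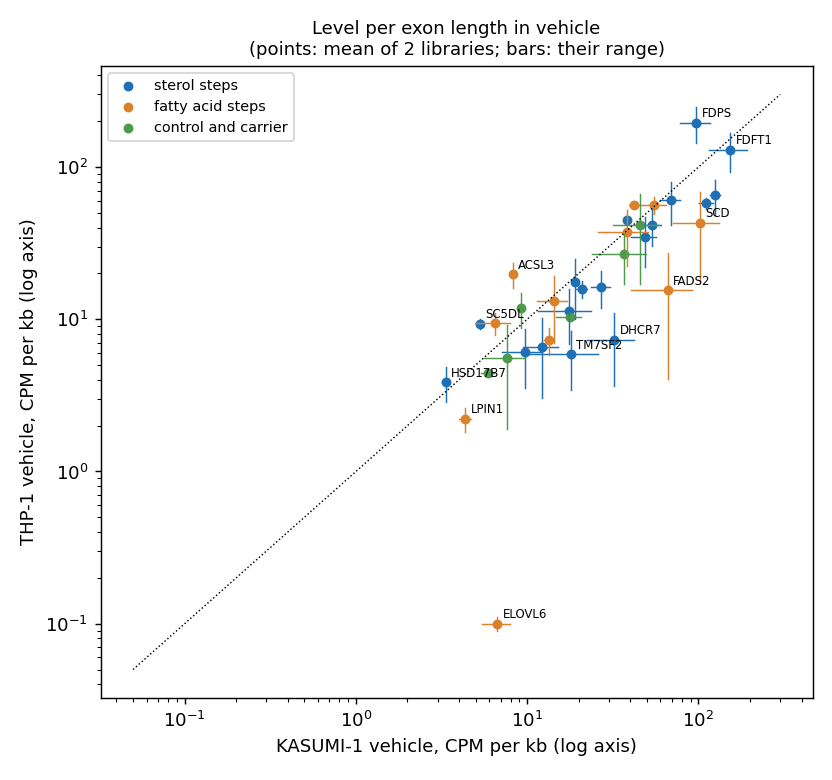
Vehicle level of each of the 35 members in THP-1 (vertical) against KASUMI-1 (horizontal), in CPM per kb on log axes; points are means of 2 libraries, bars their range and the dotted line equality. ELOVL6 lies far below the line, at a THP-1 mean of 0.10 CPM per kb, while FDPS and ACSL3 lie above it.

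Part of the sterol branch fell with LSD1i in KASUMI-1. Over the 6 h and 72 h pairs, 10 of the 35 members fell and 0 rose, against 5.09% of all 16060 genes that fell and 7.02% that rose (adjusted p under 0.05, edgeR quasi-likelihood test with a term for each pair). The falls were in 8 of the 18 sterol enzymes and in 2 of the 11 fatty acid genes, and none of the 6 control and carrier genes passed. The median log2 change was -0.44 for the sterol enzymes, -0.29 for the fatty acid genes, -0.18 for the control and carrier genes and 0.02 for all genes tested. On the value alone, 28 of the 35 members were below 0, against 7669 of all 16060 genes.

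ACAT2, the cytosolic thiolase that joins acetyl-CoA units at the head of the mevalonate route, had the lowest adjusted p. It was at 86.4 (vehicle) and 64.9 CPM (LSD1i) at 6 h, and at 114 and 61.1 CPM at 72 h. Both LSD1i libraries lay below both vehicle libraries, and the log2 change was -0.66 ± 0.13 (SE, adjusted p = 0.00469). Of the mevalonate enzymes that follow it, MVD and PMVK fell. MVD, the decarboxylase that ends the mevalonate steps, went from 21.05 to 18.1 CPM at 6 h and from 43.0 to 16.8 CPM at 72 h (log2 change -0.79 ± 0.22, adjusted p = 0.0249). PMVK, the phosphomevalonate kinase, went from 48.0 to 38.8 CPM at 6 h and from 51.6 to 31.4 CPM at 72 h (log2 change -0.51 ± 0.13, adjusted p = 0.0202). For both genes the LSD1i libraries lay below the vehicle libraries. HMGCS1, the HMG-CoA synthase, was at 141 and 143 CPM at 6 h and at 199 and 96.9 CPM at 72 h, and its change did not pass (-0.51 ± 0.18, adjusted p = 0.0705). MVK, the mevalonate kinase, had a value of -0.35 (adjusted p = 0.240) and IDI1 one of -0.13 (adjusted p = 0.540).

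The steps from farnesyl diphosphate to squalene epoxide fell by similar amounts. FDPS went from 116 to 97.0 CPM at 6 h and from 172 to 106 CPM at 72 h (log2 change -0.48 ± 0.13, adjusted p = 0.0290). FDFT1 went from 243 to 208 CPM and from 404 to 257 CPM (log2 change -0.44 ± 0.14, adjusted p = 0.0452). SQLE, the squalene epoxidase, went from 139.6 to 123 CPM and from 179.6 to 111 CPM (log2 change -0.44 ± 0.14, adjusted p = 0.0469). Among the 10 genes that fell, FDFT1 was the one whose LSD1i and vehicle levels overlapped, since its LSD1i level at 72 h was above its vehicle level at 6 h. Of the later sterol enzymes, EBP went from 109 to 89.9 CPM and from 133 to 80.1 CPM (log2 change -0.50 ± 0.13, adjusted p = 0.0189). NSDHL, a decarboxylating sterol dehydrogenase, went from 30.1 to 23.6 CPM and from 35.1 to 22.2 CPM (log2 change -0.50 ± 0.14, adjusted p = 0.0285). The other late steps did not pass: DHCR7 (-0.48, adjusted p = 0.0840), lanosterol synthase LSS (-0.44, 0.114), TM7SF2 (-0.43, 0.0665), CYP51A1 (-0.33, 0.112), the methyl sterol oxidase SC4MOL, now named MSMO1 (-0.15, 0.519), HSD17B7 (-0.07, 0.855) and SC5DL (0.24, 0.221).

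On the fatty acid side SCD and ELOVL6 fell. SCD was at 388 (vehicle) and 322 CPM (LSD1i) at 6 h and at 723 and 374 CPM at 72 h, a log2 change of -0.61 ± 0.16 (adjusted p = 0.0184). ELOVL6 was at 35.9 and 29.5 CPM at 6 h and at 52.6 and 33.6 CPM at 72 h, a log2 change of -0.46 ± 0.14 (adjusted p = 0.0455, and not called by DESeq2). For both, the 2 LSD1i libraries lay below the 2 vehicle libraries. FADS2 (-0.64, adjusted p = 0.0608), the fatty acid synthase FASN (-0.52, 0.0828), the ATP citrate lyase ACLY (-0.36, 0.140), the desaturase FADS1 (-0.29, 0.147) and ACACA (-0.18, 0.393) had values below 0 that did not pass. The other 4 fatty acid genes had values above 0, none past the test: LPIN1 (0.43, adjusted p = 0.0558), ELOVL5 (0.34, 0.0727), ACSL3 (0.20, 0.332) and the acetyl-CoA synthetase ACSS2 (0.09, 0.751). FADS1 and FADS2 overlap at their ends on opposite strands, and the counting recorded no strand option, so reads in the shared stretch cannot be assigned.

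The 72 h pair carried the KASUMI-1 result. Each pair alone has 1 library per agent and no test, so a member was counted there when its ratio was at least 1.5-fold with a 95% counting interval that excluded equality. At 6 h none of the 35 members met this in either direction, against 5.22% of all genes higher and 2.02% lower. At 72 h 19 members were lower (12 sterol, 5 fatty acid and 2 control genes) and 1 was higher, against 7.21% of all genes lower and 11.2% higher. The median log2 ratio of the sterol enzymes was -0.16 at 6 h and -0.69 at 72 h, that of the fatty acid genes -0.05 and -0.45, and that of the control and carrier genes 0.04 and -0.36. The lowest ratios at 72 h were those of MVD (-1.35), FADS2 (-1.22), HMGCS1 (-1.04), DHCR7 (-0.98) and SCD (-0.95). The member that was higher was LPIN1 (0.60), at 25.6 CPM in vehicle and 38.8 CPM in LSD1i. Without the 72 h pair 0 of the 10 calls were left, and without the 6 h pair 21 members fell and 1 rose. Without the THP-1 24 h pair, which adds only to the estimate of the spread, 5 members fell, and without the THP-1 72 h pair 6 fell. With the 4 KASUMI-1 libraries alone ACAT2 was the single call, and with no term for the pairs there were 0.

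**Figure D2:**
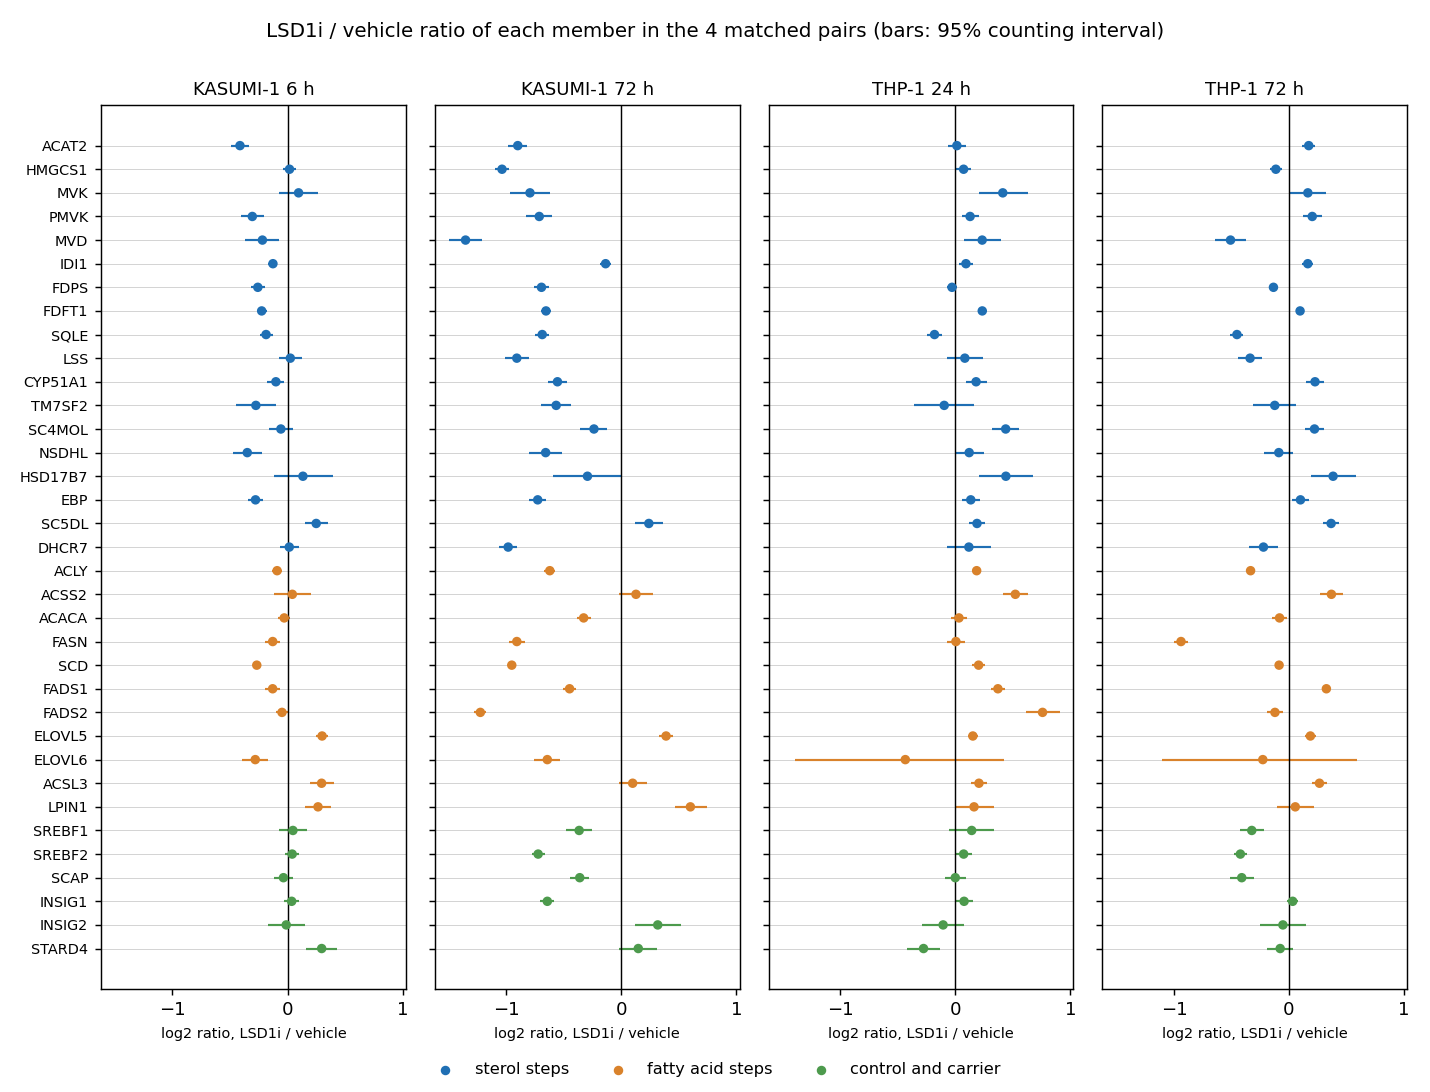
Log2 ratio of LSD1i to vehicle for each member (rows) in the 4 matched pairs (panels); points are ratios of CPM with a prior count of 2, bars are 95% intervals for counting error, and colours separate sterol, fatty acid and control genes. The KASUMI-1 72 h panel has 28 of 35 points left of 0, the KASUMI-1 6 h panel 21, the THP-1 24 h panel 6 and the THP-1 72 h panel 19. Of all 16060 genes tested, 7148, 8044, 8004 and 8108 were below 0 in the same order.

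The KASUMI-1 ratio at 72 h rests on 1 library per agent. A raised vehicle level and a lowered LSD1i level cannot be told apart in it. Summed over the 35 members, KASUMI-1 had 3150 CPM (vehicle 6 h), 2942 CPM (LSD1i 6 h), 4688 CPM (vehicle 72 h) and 3064 CPM (LSD1i 72 h). The vehicle 72 h library stood apart as the high one, and the LSD1i 72 h library was close to the 6 h libraries. In vehicle, 30 of the 35 members were higher at 72 h than at 6 h, with a median log2 ratio of 0.49. Of all 16060 genes, 7705 were higher there, with a median of 0. In LSD1i, 14 of the 35 were higher at 72 h, with a median of -0.09, against 8214 of all 16060 genes and a median of 0.01. The KASUMI-1 vehicle 72 h library enters both the LSD1i ratio at 72 h and the vehicle ratio over time, so these values are not independent. It was also the shallowest library, and the part of depth in the result was not tested. Genes of DNA replication moved in the same pair: the sum of 10 S phase genes was 2403, 2215, 2521 and 1645 CPM in the same order, and here the LSD1i 72 h library stood low. All 10 had values below 0 in the KASUMI-1 test, with 2 called (MCM7 -0.52 and TK1 -0.57). The 8 monocyte genes summed to 82.1, 246, 90.8 and 560.5 CPM, of which LYZ alone made 29.6, 136, 38.1 and 415 CPM. Of the 8, 6 rose in KASUMI-1. The largest log2 changes were those of LY96 and CD86, and CD14 was at 0.089 CPM or less. The part of either list in the sterol values was not tested.

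Few members passed the LSD1i test in THP-1. There 1 of the 35 members rose and 0 fell, against 6.51% and 2.85% of all genes. The median log2 change over both pairs was 0.11 for the sterol enzymes, 0.11 for the fatty acid genes and -0.14 for the control and carrier genes. In the single pairs, with no test, the sterol median log2 ratio was 0.13 at 24 h and 0.10 at 72 h. That of the fatty acid genes was 0.19 and -0.08, and that of the control and carrier genes 0.04 and -0.20. The gene that rose was ACSS2, which makes acetyl-CoA from acetate. It was at 24.7 and 35.6 CPM at 24 h and at 34.5 and 44.5 CPM at 72 h (vehicle, then LSD1i), so both LSD1i levels lay above both vehicle levels. The log2 change was 0.45 ± 0.13 (adjusted p = 0.0416). The call was lost with DESeq2, without the filter on low counts, without pair terms, without the THP-1 24 h pair and without the THP-1 72 h pair, and over 9 alternatives its adjusted p ran from 0.00855 to 0.673.

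FASN was the member with the lowest ratio in THP-1 at 72 h. It was at 58.8 and 59.0 CPM at 24 h and at 163 and 84.9 CPM at 72 h, a log2 ratio of 0.01 and then -0.94. Over both pairs its value was -0.47 ± 0.19 and did not pass (adjusted p = 0.160), though a fit of the THP-1 libraries alone called it. By the 1.5-fold rule FADS2 was the 1 member higher at 24 h (13.3 and 22.6 CPM, log2 ratio 0.76), against 6.98% of all genes higher and 3.91% lower. FASN was the 1 member lower at 72 h, against 6.57% of all genes lower and 7.42% higher. The transcription factor genes and their escort were slightly lower at 72 h, SREBF1 by a log2 ratio of -0.32, SREBF2 by -0.42 and SCAP by -0.41, with no test. The 8 monocyte genes, by contrast, all rose in THP-1, and summed to 1141, 5448, 815 and 11774 CPM. Most of each sum was LYZ, at 886 and 4843 CPM at 24 h and at 527 and 11086 CPM at 72 h (vehicle, then LSD1i). Their part in the values of the members was not tested.

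The difference between the lines was tested directly as a contrast of the 2 LSD1i coefficients. ACAT2, PMVK and FADS1 passed, each with a more positive LSD1i effect in THP-1. The differences were 0.75 ± 0.19 for ACAT2 (SE, log2 scale, adjusted p = 0.0272), 0.67 ± 0.19 for PMVK (adjusted p = 0.0418) and 0.64 ± 0.18 for FADS1 (adjusted p = 0.0434). Thus 3 of the 35 members were called higher and 0 lower, against 3.07% and 2.62% of all genes. All 18 sterol enzymes had a difference above 0, from 0.03 (SC5DL) to 0.75 (ACAT2), with a median of 0.49. The median of the fatty acid genes was 0.15 and that of all genes -0.02, with 7690 of the 16060 above 0. The 10 S phase genes were also all above 0, with a median of 0.31. The largest value, 0.93 ± 0.31 for FADS2, did not pass (adjusted p = 0.0813). Each of the 3 calls was lost without pair terms, without the KASUMI-1 72 h pair and without either THP-1 pair, and 14 members were called without the KASUMI-1 6 h pair. The first times also differed between the lines (6 h and 24 h), so line and first time cannot be told apart in this contrast.

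More members passed a test of time than a test of LSD1i in THP-1. This comparison was added after the data were seen, and used the pair terms of the same fit to set the 72 h libraries of both agents against those of the first time. In THP-1 23 of the 35 members rose between 24 h and 72 h and 0 fell, against 1.2% and 0.747% of all genes. The rises took in 13 of the 18 sterol enzymes, 6 of the 11 fatty acid genes and 4 of the 6 control and carrier genes, with a median of 0.80 for the members and 0.01 for all genes. DESeq2 called 20 of the members, without HMGCS1, HSD17B7 and FASN. Neither the S phase list nor the monocyte list had a call in this contrast. Per the file header the alignment files of the 72 h libraries sat in a folder of their own, so time and any separate handling cannot be told apart.

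Of the 6 control and carrier genes, INSIG1, SREBF1, SREBF2 and STARD4 rose. INSIG1, the sterol-regulated anchor of SCAP, was at 51.9 (vehicle) and 54.8 CPM (LSD1i) at 24 h and at 199.8 and 204 CPM at 72 h. Both 72 h libraries lay far above both 24 h libraries, and the log2 change was 1.92 ± 0.15 (SE, adjusted p = 1.06e-06). SREBF1 was at 9.12 and 10.1 CPM at 24 h and at 44.2 and 35.3 CPM at 72 h (log2 change 2.04 ± 0.16, adjusted p = 1.06e-06). SREBF2 was at 73.2 and 77.0 CPM at 24 h and at 156 and 117 CPM at 72 h (log2 change 0.85 ± 0.16, adjusted p = 0.00932). STARD4, a soluble sterol carrier, rose by 0.88 ± 0.14 (adjusted p = 0.00198). SCAP (-0.03) and INSIG2 (-0.01) did not pass.

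Among the 13 sterol enzymes that rose the changes were 1.53 for LSS, 1.43 for DHCR7, 1.27 for TM7SF2, 1.21 for SC4MOL, 1.16 for MVK, 1.02 for ACAT2, 0.99 for HMGCS1, 0.83 for CYP51A1, 0.80 for FDFT1, 0.79 for IDI1, 0.75 for HSD17B7, 0.73 for FDPS and 0.66 for SQLE. LSS stood at 13.9 and 14.7 CPM at 24 h and at 46.5 and 36.8 CPM at 72 h, and DHCR7 at 9.7 and 10.6 CPM and then at 29.4 and 25.2 CPM. For both, vehicle and LSD1i were close at 24 h and every 72 h library was higher. MVD (0.83, adjusted p = 0.0570), SC5DL (0.31), NSDHL (0.27), EBP (0.24) and PMVK (-0.11) did not pass.

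The desaturases moved most on the fatty acid side. FADS2 was at 13.3 and 22.6 CPM at 24 h and at 89.3 and 82.1 CPM at 72 h (log2 change 2.29 ± 0.23, adjusted p = 1.62e-05). SCD was at 96.9 and 112 CPM at 24 h and at 374 and 353 CPM at 72 h (log2 change 1.80 ± 0.16, adjusted p = 6.35e-06). FADS1 was at 93.8 and 121 CPM at 24 h and at 218 and 273 CPM at 72 h (log2 change 1.2 ± 0.13, adjusted p = 3.47e-05). In all these genes the 72 h levels of both agents exceeded the 24 h levels of both. FASN (1.0), ACSL3 (0.57) and ACACA (0.53) also rose, while LPIN1 (0.46), ELOVL6 (0.42), ACSS2 (0.40), ACLY (0.12) and ELOVL5 (-0.10) did not pass.

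**Figure D3:**
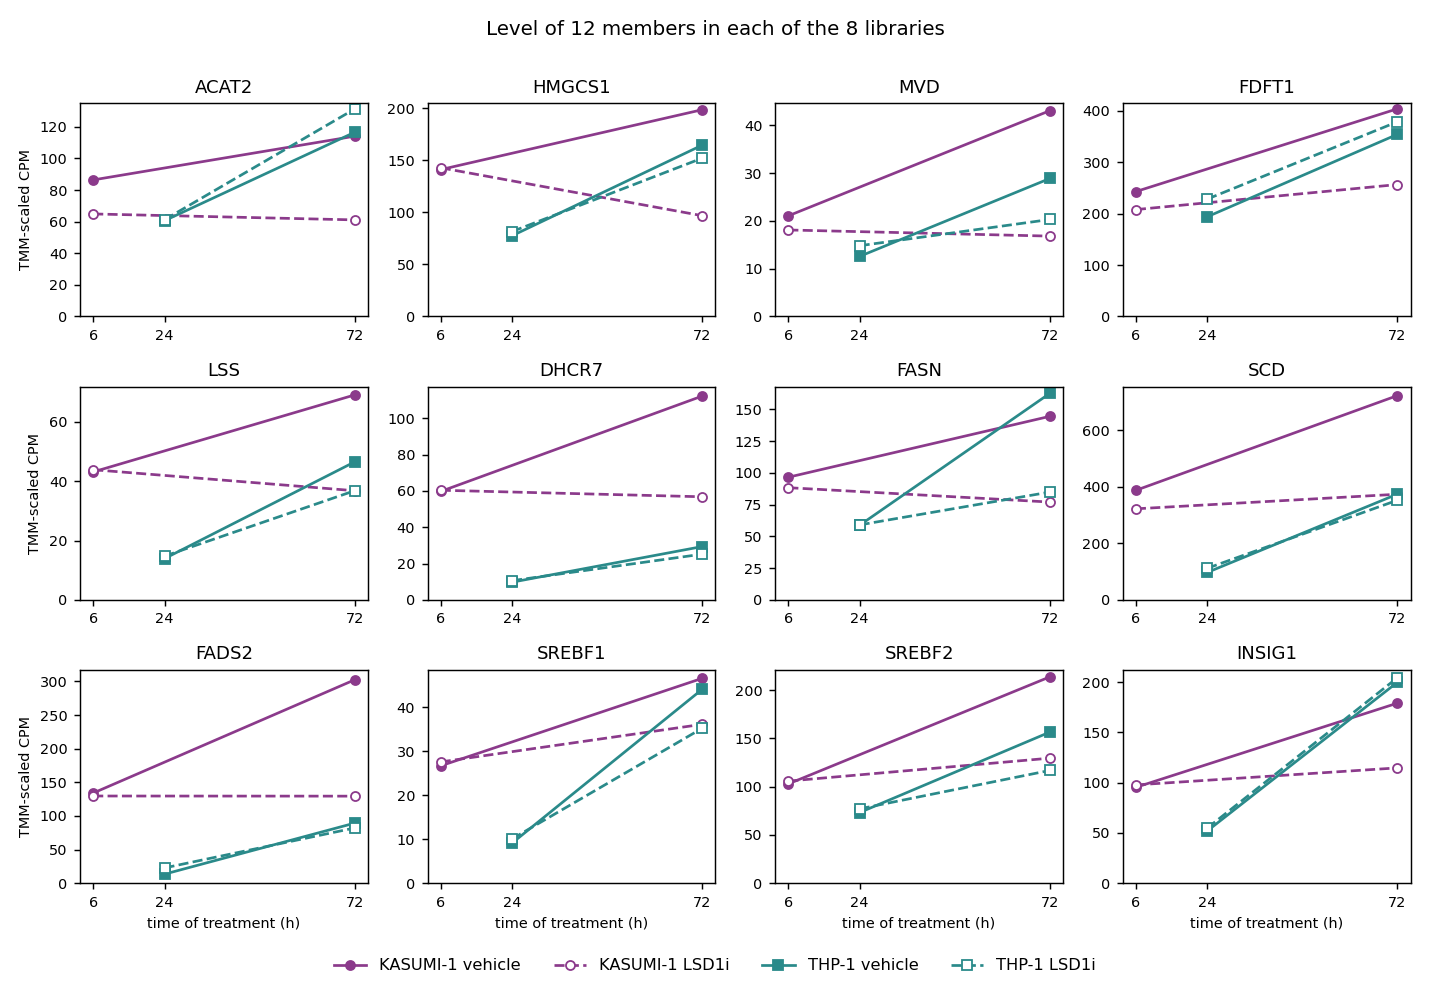
TMM-scaled CPM (vertical, from 0) of 12 members against time of treatment in hours, with KASUMI-1 as circles and THP-1 as squares; filled symbols and solid lines are vehicle, open symbols and dashed lines LSD1i, 1 library per point. In THP-1 the 12 genes are higher at 72 h under both agents, for INSIG1 from 51.9 and 54.8 CPM to 199.8 and 204 CPM, while in KASUMI-1 the vehicle line climbs and the LSD1i line climbs less or not at all, for FADS2 staying at 129.6 and 129.4 CPM.

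In KASUMI-1 8 of the 35 members rose between 6 h and 72 h over both agents and 0 fell, against 4.76% and 2.55% of all genes. TM7SF2 rose most, from 15.6 (vehicle) and 12.9 CPM (LSD1i) to 41.2 and 27.8 CPM (log2 change 1.25 ± 0.15, adjusted p = 9.90e-05). FADS1 (0.82), ACSS2 (0.72), SREBF2 (0.67), SREBF1 (0.60), INSIG1 (0.57), SCD (0.56) and FDFT1 (0.52) followed. With the KASUMI-1 libraries alone 3 members were called. The agents looked unlike each other there. SREBF2 was at 103 and 106 CPM at 6 h (vehicle, then LSD1i) and at 214 and 129.5 CPM at 72 h, and INSIG1 at 95.3 and 97.7 CPM and then at 179 and 115 CPM. Whether the change over time differs between agents could not be tested within a line, since each agent had 1 library per time.

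The time effects of the lines differed for 9 members, each with the more positive value in THP-1, against 0.592% of all genes higher and 0.392% lower. They were FADS2 (difference 1.71), SREBF1 (1.45), INSIG1 (1.35), LSS (1.32), SCD (1.25), SC4MOL (1.24), STARD4 (1.05), IDI1 (0.99) and ACAT2 (0.86). In KASUMI-1 the time values of IDI1 (-0.20), STARD4 (-0.17) and SC4MOL (-0.02) were below 0. DESeq2 did not call FADS2. The stretches of time compared are unequal, from 6 h to 72 h in KASUMI-1 and from 24 h to 72 h in THP-1. Under LSD1i the THP-1 members had a median log2 ratio of 0.67 from 24 h to 72 h, with 31 of 35 above 0, and under vehicle 0.79, with 32 of 35 above 0. Of all 16060 genes, 8056 were above 0 under LSD1i and 8464 under vehicle.

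**Figure D4:**
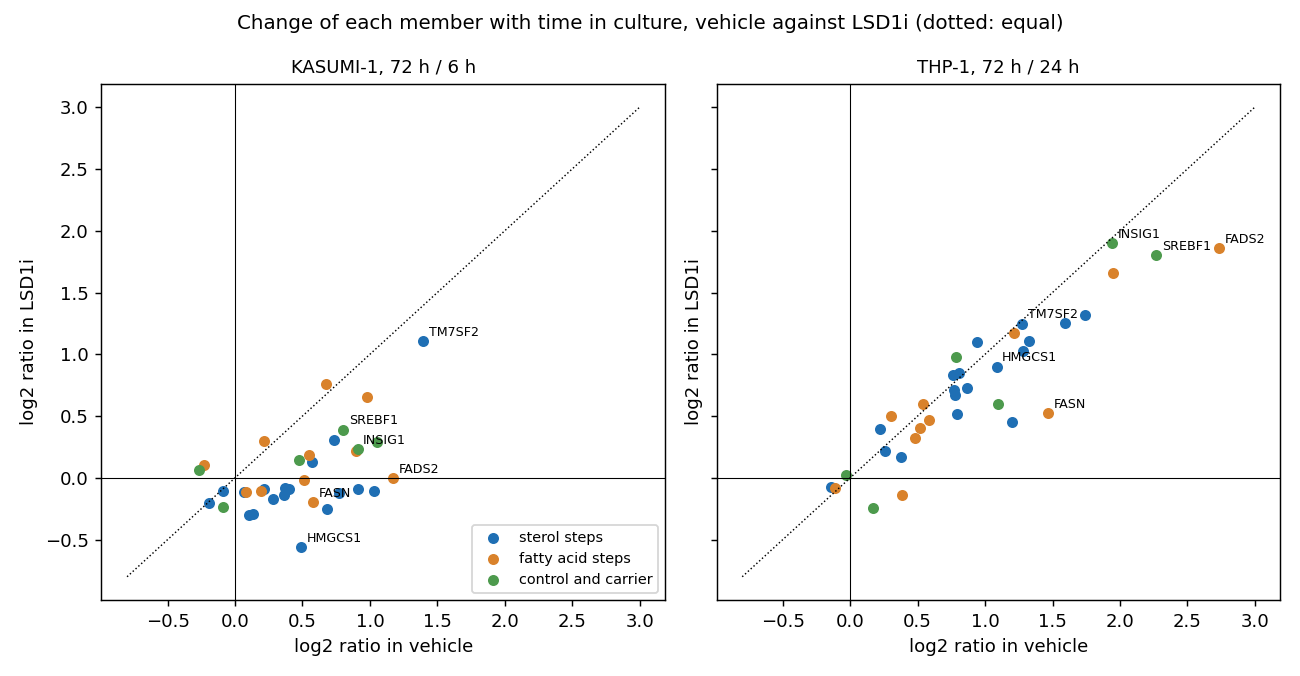
Log2 ratio of the 72 h library to the library of the first time for each member, in LSD1i (vertical) against vehicle (horizontal), KASUMI-1 on the left and THP-1 on the right; the dotted line marks equal ratios. In THP-1 most members lie near the line, with medians of 0.79 (vehicle) and 0.67 (LSD1i), and in KASUMI-1 most lie below it, with medians of 0.49 and -0.09.

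Since so many members rose together in THP-1, their promoters were searched for short motifs known from this pathway. The window was the 250 bases before the RefSeq start (build GRCh38.p14), and 31 of the 35 members had an entry, some with several starts (44 windows). FASN, ACAT2, SQLE and FDFT1 had none. The motifs were TCACNCCAC, a strict form of the sterol regulatory element, CCAAT, the NF-Y box, and GGGCGG, the GC box. Both strands were read and a gene counted when any of its windows held a match, whether or not that match overlapped another motif. TCACNCCAC was in 1 of the 31 members (3.23%), SREBF2, against 1.09% of the 27305 genes in the table. CCAAT was in 22 of the 31 (71.0%), against 37.0% of all genes and 40.2% of protein-coding genes, and in 13 of the 15 sterol enzymes with an entry (86.7%). GGGCGG was in 29 of the 31 (93.5%), against 46.2% and 62.1%. These matches are descriptions of letters and were not tested. The background genes were taken whether or not they passed the filter on low counts, while all 31 members passed it, so the shares are not of like sets. A gene with several windows has more chances of a match, and over windows CCAAT was in 59.1% of those of the members and 32.0% of all.

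The SREBF2 window is shown because it held the single TCACNCCAC match, which is in capitals and begins 133 bases before the start (chr22:41832855-41833104, + strand, GRCh38.p14).
SREBF2: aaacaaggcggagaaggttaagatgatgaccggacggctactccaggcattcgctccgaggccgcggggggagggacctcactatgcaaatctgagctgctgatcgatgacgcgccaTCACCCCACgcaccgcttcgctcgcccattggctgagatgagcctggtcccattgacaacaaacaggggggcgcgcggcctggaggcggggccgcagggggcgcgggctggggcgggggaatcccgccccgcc

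The MVK and SC4MOL windows are shown as sterol enzymes that rose in THP-1 and held several CCAAT boxes (5 and 4), and INSIG1 as a control gene that rose and held 1. CCAAT on either strand is in capitals (ATTGG is its reverse complement). The windows are chr12:109573544-109573793 for MVK, chr4:165327419-165327668 for SC4MOL and chr7:155297628-155297877 for INSIG1, all on the + strand of GRCh38.p14.
MVK: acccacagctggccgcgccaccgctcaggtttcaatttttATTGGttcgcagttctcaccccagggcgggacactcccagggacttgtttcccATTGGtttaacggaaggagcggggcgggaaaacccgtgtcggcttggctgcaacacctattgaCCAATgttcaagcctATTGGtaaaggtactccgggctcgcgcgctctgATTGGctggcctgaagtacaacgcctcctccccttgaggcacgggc
SC4MOL: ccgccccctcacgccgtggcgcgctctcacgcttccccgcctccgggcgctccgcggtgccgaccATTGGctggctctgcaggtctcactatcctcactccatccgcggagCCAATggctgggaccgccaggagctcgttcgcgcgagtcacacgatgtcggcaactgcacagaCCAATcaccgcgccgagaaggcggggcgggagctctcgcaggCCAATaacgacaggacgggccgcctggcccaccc
INSIG1: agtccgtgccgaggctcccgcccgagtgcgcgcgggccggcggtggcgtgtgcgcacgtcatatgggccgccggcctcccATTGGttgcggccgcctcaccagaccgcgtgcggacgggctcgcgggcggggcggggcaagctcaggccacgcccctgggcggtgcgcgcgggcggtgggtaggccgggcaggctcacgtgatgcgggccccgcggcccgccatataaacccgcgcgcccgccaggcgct
NSDHL, with 5 CCAAT matches, did not pass in the THP-1 time contrast (0.27), while FADS1, FADS2 and SREBF1, with none, rose. These examples were picked after their values were seen, and whether the number of boxes goes with the size of the rise was not tested.

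A further list of 38 genes covered the neighbouring steps: sterol sensing proteases, isoprenoid use, sterol efflux and storage, the citrate carrier, and other elongases, desaturases and acyl-CoA synthetases. Of these, 37 were tested. In KASUMI-1 3 rose and 3 fell with LSD1i, near the 7.02% and 5.09% of all genes. SLC25A1, the mitochondrial citrate carrier that supplies ACLY, was at 81.0 and 60.1 CPM at 6 h and at 130.4 and 66.9 CPM at 72 h (vehicle, then LSD1i). Its log2 change was -0.70 ± 0.14 (adjusted p = 0.00417). PDSS1, which builds the isoprenoid tail of ubiquinone, fell by 0.46 on the log2 scale and AGPAT2, an acyltransferase of glycerolipid synthesis, by 0.43. SOAT1, which esterifies cholesterol for storage, rose in both lines. It was at 34.98 and 55.1 CPM and at 35.03 and 51.2 CPM in the KASUMI-1 pairs and at 45.6 and 87.3 CPM and at 47.5 and 78.1 CPM in the THP-1 pairs. Every LSD1i level was above every vehicle level of its line (log2 change 0.60 ± 0.13 in KASUMI-1, adjusted p = 0.00583, and 0.83 ± 0.13 in THP-1, adjusted p = 0.000185). MYLIP, a ubiquitin ligase induced by sterol excess, rose by 0.48 in KASUMI-1. The sterol exporter ABCA1 was called in KASUMI-1 (1.72) at a level of only 0.0445 to 0.382 CPM.

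In THP-1 4 of the 37 rose and 1 fell with LSD1i, against 6.51% and 2.85% of all genes. ELOVL1, which makes very long saturated acyl chains, was at 116 and 437 CPM at 24 h and at 142 and 396 CPM at 72 h (log2 change 1.70 ± 0.13, adjusted p = 1.08e-07). In KASUMI-1 it lay between 78.8 and 105 CPM, and the difference of the lines was 1.93 ± 0.19 (adjusted p = 1.26e-05). The desaturase SCD5 rose by 1.15 and the fatty acid carrier FABP5 by 0.53, and the mitochondrial carboxylase ACACB fell by 0.51 on the log2 scale. FABP5 also differed between the lines (0.85). With SOAT1 and ELOVL1, these 5 genes lay outside the listed members, whose only call in THP-1 was ACSS2.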

How the data were processed

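The authors deposited 1 table of whole-number read counts per gene for the 8 libraries, with no normalization of the counts. FeatureCounts 1.5.2 counted the reads, per the file headers, with no strand option recorded, and the gene coordinates are those of NCBI36. The submitters' processing notes also name FastQC 0.10.0, TopHat2 2.0.10, Subread, edgeR and the build hg18. Reads that map to several places may be undercounted for close paralogs. The deposited length per gene, in bases of exon, was used for CPM per kb.

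The groups came from the labels, with 1 library each, and libraries of the same line and time formed 4 pairs. The members and lists were chosen with earlier results of these data known. All 35 members were named, as were genes of the further list that a test called, and up to 4 genes of each context list. Some marker genes are not reported here.

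Tests were edgeR 4.0.16 quasi-likelihood F-tests in R 4.3.3, with TMM scaling and filterByExpr at a minimum count of 10, over all 16060 genes. The fit had 1 term per pair and 1 LSD1i coefficient per line, with 2 residual degrees of freedom, and it borrowed heavily from other genes for its estimate of spread (prior degrees of freedom 15.6, median). The vehicle libraries had a fit of their own. Benjamini-Hochberg adjusted p-values under 0.05 were called. The code was tested on simulated counts. Single pairs had no test, only an exact conditional binomial 95% interval, which covers counting error alone, as these reads carry no molecular identifiers and need not be separate molecules. Alternatives were RLE scaling, DESeq2 1.42.0, no filter, no pair terms, a prior count of 0.5 and leaving out each pair or library. The contrasts over time were added after the data were seen.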

Additional observations from a re-analysis of the deposited data

Results flagged for a closer look

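The LSD1i effect differed between the lines, by the contrast of the line coefficients, for ACAT2 (THP-1 minus KASUMI-1 0.75 on the log2 scale, adjusted p = 0.0272), PMVK (0.67, adjusted p = 0.0418) and FADS1 (0.64, adjusted p = 0.0434). ACAT2 and PMVK fell in KASUMI-1, and none of the 3 passed in THP-1.

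The change from the first time to 72 h differed between the lines, by the same kind of contrast, for 9 members. The control and carrier genes were SREBF1 (1.45, adjusted p = 0.00295), INSIG1 (1.35, adjusted p = 0.00334) and STARD4 (1.05, adjusted p = 0.0139). The sterol enzymes were LSS (1.32, adjusted p = 0.0147), SC4MOL (1.24, adjusted p = 0.00295), IDI1 (0.99, adjusted p = 0.00949) and ACAT2 (0.86, adjusted p = 0.0326). The desaturases were FADS2 (1.71, adjusted p = 0.0112) and SCD (1.25, adjusted p = 0.0111). This comparison was chosen after seeing the data, and the first times differ between the lines.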

How the results depend on the processing

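RLE scaling moved the median of all genes by less than 0.1 on the log2 scale and kept every call of a member in the LSD1i test of either line. KASUMI-1 LSD1i falls, 10 in the main analysis, numbered 0 with no pair terms, 1 in the KASUMI-1 libraries alone and 0 to 21 when 1 pair was left out. KASUMI-1 rises, 0 in the main analysis, numbered 1 with no filter and 0 to 1 with a pair left out. THP-1 rises, 1 in the main analysis, numbered 0 with DESeq2, 0 with no filter, 0 with no pair terms, 2 in the THP-1 libraries alone and 0 to 2 with a pair left out. THP-1 falls, 0 in the main analysis, numbered 1 with no filter, 1 in the THP-1 libraries alone and 0 to 1 with a pair left out. Members that differed between the lines, 3 in the main analysis, numbered 6 with DESeq2, 6 with no filter, 0 with no pair terms and 0 to 14 with a pair left out. In vehicle, members lower in THP-1, 10 in the main analysis, numbered 9 to 24 with 1 library left out, and FADS1 ran from -0.74 to 0.52, its sign turning without the KASUMI-1 vehicle 72 h library. Rises over time in KASUMI-1, 8 in the main analysis, numbered 3 in its libraries alone and 5 without either THP-1 pair. Members whose change over time differed between the lines, 9 in the main analysis, numbered 14 with no filter. Only ELOVL6 was left out when members needed at least 100 reads in every library, which kept 34. The fatty acid median was then -0.39 in the KASUMI-1 72 h pair and -0.014 in the THP-1 72 h pair, against -0.45 and -0.08 with ELOVL6. The cause of the other shifts was not tested, and the fits that leave some libraries out also have fewer of them. With 2 residual degrees of freedom and 1 library per group, calls near the threshold are not firm. Depth limits ELOVL6 in THP-1.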

Other observations

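The contrast over time, chosen after the values were seen, was also read for the neighbouring genes of the pathway. In THP-1 4 of the 37 further genes rose between 24 h and 72 h and 0 fell, against 1.2% and 0.747% of all genes. The sterol exporter ABCA1 was at 5.97 (vehicle) and 6.26 CPM (LSD1i) at 24 h and at 31.7 and 40.8 CPM at 72 h, a log2 change of 2.56 ± 0.17 (adjusted p = 3.28e-07). ABCA1 and MYLIP (0.96) are known as genes induced when sterol is plentiful, and SLC25A1 (0.62) and MID1IP1 (0.57), a partner of acetyl-CoA carboxylase, belong to fatty acid synthesis. In KASUMI-1 2 of the 37 rose and 2 fell between 6 h and 72 h, against 4.76% and 2.55% of all genes. SCD5 rose by 0.90 and the sterol receptor gene NR1H3 by 0.70, while the acyltransferase GPAM fell by 0.77 on the log2 scale and FABP5 fell by 0.58.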
